A study of Caenorhabditis elegans with 30 samples.

Results

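The H4K16ac peaks described here lie on the autosomes of C. elegans XO larvae at places where no peak was called in wild-type XX larvae. They were chosen by position alone: each is a peak of the XO list on chromosome I, II, III, IV or V that shares not even 1 bp with any peak of the wild-type XX list. There were 4382 of them among 11809 autosomal XO peaks, or 37.1% (95% Wilson interval 36.2 to 38.0), and among 15186 XO peaks on all chromosomes. The presence or absence of a peak in the 2 lists chose these regions, so their absence from XX is a description and not a finding. The other 7427 autosomal XO peaks, which overlapped an XX peak, are called shared peaks. In the other direction, 1377 of 7803 autosomal XX peaks (17.6%) overlapped no XO peak. All XO peaks covered 37.1% of the autosomes and all XX peaks 34.9%, so the XO list held more peaks over a similar length.

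H4K16ac is acetylation of lysine 16 in the tail of histone H4. The acetyl group removes a positive charge that takes part in the packing of nucleosomes against each other, and the mark is known from open chromatin and active genes. It is added by acetyltransferases of the MYST family, to which worm MYS-1, the relative of mammalian Tip60, belongs. In XX worms, a condensin-like machine named the dosage compensation complex binds both X chromosomes, lowers their transcription and lowers their H4K16ac. XO animals normally develop as males and do not load the complex, and autosomes are not its main target in either karyotype.

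Chromatin was immunoprecipitated with an antibody to H4K16ac from L3 larvae of strain TY1072, XO animals that carry sdc-2(y74) on X and her-1(e1520) on V and develop as hermaphrodites because her-1, the switch to male fate, is mutated, and from L3 larvae of the wild-type strain N2, which are XX hermaphrodites. Each background had 3 ChIP and 3 input libraries, and the authors called the peaks on the 3 pooled ChIP libraries. RNA was sequenced from 5 libraries of TY1072 labelled mys-1(RNAi), 5 of TY1072 fed the empty RNAi vector, 4 of strain EKM71, dpy-21(e428) XX, which lacks the function of a subunit of the dosage compensation complex, and 4 of N2. All larvae were synchronised as hatched larvae and kept on plates for 24 h. The XO larvae differ from wild type in karyotype, in the her-1 and sdc-2 alleles and, for RNA, in the food or RNAi plate as far as the labels tell, and the effects of these cannot be told apart. The XO samples are whole hermaphrodite-bodied larvae, not males. The labels give strain TY1072 for all of them, whereas the study's own list of ChIP samples names other strains for replicates 2 and 3, and the labels were followed. The lists give positions with no height and no replicate columns, and RNA is given as 1 mean RPKM per group (reads scaled to the length of the transcript and the size of the library). No value used here therefore has a spread between replicates, and none was tested between backgrounds. Intervals are 95% Wilson intervals for shares and order-statistic intervals for medians, and cover the counting of peaks or genes only. In whole larvae, a weaker mark in all cells and fewer cells with the mark cannot be told apart. The RNA of mys-1 was 51.7 RPKM in the libraries labelled mys-1(RNAi), against 15.7 RPKM with the vector, which for RNA goes against the label. The study followed the knockdown by MYS-1 protein and reports that western blots no longer detected it after the RNAi. Protein was not analysed here, so these libraries are named by their label throughout. her-1, which is normally on in XO animals, was at 434 RPKM in XO with vector and 1.70 RPKM in wild type.

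The sequences below show what such peaks look like in front of genes. They are the exon-free part of the peak within the 1000 bp before the gene start, cut to the 150 bases nearest the gene, for genes on chromosomes II to V whose promoter holds an XO-only peak and that meet no XX peak. The first 3 are the genes with the highest ratio of XO to XX RNA that had at least 60 such bases, the next 3 those with the lowest ratio, and the next 3 those with the most RNA in XO. The last is mys-1 itself, which was looked up and is shown after its values were seen. All read toward the gene from the strand of the gene, are from RefSeq's WBcel235 genome, and have each CG dinucleotide in capitals, because XO-only and shared peaks differed in how often CG occurred.
F59D6.1, chrV:3044820-3044969, plus strand: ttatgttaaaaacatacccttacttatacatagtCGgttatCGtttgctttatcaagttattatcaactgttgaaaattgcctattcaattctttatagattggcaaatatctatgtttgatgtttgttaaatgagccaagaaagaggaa
F49F1.5, chrIV:4120416-4120517, minus strand: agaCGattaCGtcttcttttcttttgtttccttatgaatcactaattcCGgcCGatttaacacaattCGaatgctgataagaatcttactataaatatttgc
C18D11.6, chrIII:11810429-11810555, plus strand: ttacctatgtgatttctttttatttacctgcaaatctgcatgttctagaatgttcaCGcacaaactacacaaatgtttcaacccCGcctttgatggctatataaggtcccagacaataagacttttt
cpt-4, chrV:5028003-5028152, minus strand: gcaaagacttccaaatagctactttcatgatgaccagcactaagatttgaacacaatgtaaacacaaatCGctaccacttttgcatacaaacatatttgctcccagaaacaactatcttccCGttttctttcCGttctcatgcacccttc
cut-4, chrII:10435866-10436015, plus strand: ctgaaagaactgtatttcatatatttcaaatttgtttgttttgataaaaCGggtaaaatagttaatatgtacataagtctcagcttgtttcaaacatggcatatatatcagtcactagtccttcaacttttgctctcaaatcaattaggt
col-145, chrV:9163343-9163492, minus strand: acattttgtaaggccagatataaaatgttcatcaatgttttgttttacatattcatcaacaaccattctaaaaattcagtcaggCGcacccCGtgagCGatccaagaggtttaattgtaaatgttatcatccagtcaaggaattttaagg
Y51A2D.14, chrV:18581769-18581918, plus strand: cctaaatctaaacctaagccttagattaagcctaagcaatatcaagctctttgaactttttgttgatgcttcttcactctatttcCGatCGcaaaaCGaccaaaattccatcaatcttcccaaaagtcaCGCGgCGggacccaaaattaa
T25F10.6, chrV:6769018-6769167, minus strand: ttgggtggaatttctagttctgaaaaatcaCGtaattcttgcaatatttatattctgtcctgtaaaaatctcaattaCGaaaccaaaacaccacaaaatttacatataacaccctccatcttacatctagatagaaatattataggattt
sqt-1, chrII:11338257-11338406, minus strand: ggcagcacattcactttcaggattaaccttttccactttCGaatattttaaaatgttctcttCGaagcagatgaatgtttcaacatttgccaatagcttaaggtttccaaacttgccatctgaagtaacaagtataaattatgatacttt
mys-1, chrV:7084663-7084796, minus strand: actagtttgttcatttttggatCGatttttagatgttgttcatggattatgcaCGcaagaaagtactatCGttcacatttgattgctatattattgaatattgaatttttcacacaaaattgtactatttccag

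F49F1.5 had 5 CG in its 102 bases and cut-4, which encodes a cuticulin of the cuticle, had 1 in its 150 bases. The sequences of F49F1.5, C18D11.6 and mys-1 end 1 base before the gene start, whereas that of Y51A2D.14 ends 740 bases before it. The GC content of the 10 sequences ran between 28.7% for F59D6.1 and 39.3% for cpt-4 and Y51A2D.14.

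The CG dinucleotide was rarer in XO-only peaks than its bases predict. C. elegans does not have the CpG methylation of mammals, and its CG content is close to the product of its C and G contents. In the central 300 bp of the peaks, the median ratio of observed to expected CG was 0.861 (0.850 to 0.877) in the 4382 XO-only peaks and 0.998 (0.987 to 1.01) in the 7427 shared peaks. In the 1049 XO-only and 486 shared peaks under 300 bp, this window reached past the peak, here and for the other sequence values below. Over whole peaks the ratio was 0.865 (0.854 to 0.876) in XO-only and 1.00 (0.995 to 1.01) in shared peaks. The autosomes cut into 300 bp tiles gave 0.969 (0.967 to 0.970), so XO-only peaks were below the genome and shared peaks, taken over all widths and positions, above it. The 1377 XX peaks that no XO peak overlapped gave 0.967 (0.942 to 0.992), close to the tiles. GC content differed little, with a median of 35.7% in the central 300 bp of both XO-only and shared peaks, 33.7% in XX-only peaks and 35.3% in the tiles. Over whole peaks the median GC was 35.18% (35.01 to 35.36) in XO-only and 35.55% (35.46 to 35.65) in shared peaks, and in the centres of peaks under 1000 bp it was 35.3% (35.0 to 35.7) and 34.7% (34.3 to 35.0).

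The lower ratio was found at every kind of position and on each autosome. At promoters the ratio was 0.871 (0.848 to 0.894) in XO-only peaks and 1.02 (1.00 to 1.04) in shared peaks. In exons it was 0.842 (0.822 to 0.863) against 0.957 (0.938 to 0.973), in introns 0.904 (0.875 to 0.935) against 1.08 (1.05 to 1.11), and between genes 0.825 (0.800 to 0.857) against 0.923 (0.893 to 0.952). By chromosome, XO-only peaks ranged between 0.833 on V and 0.909 on III, and shared peaks between 0.964 on II and 1.03 on III. The intervals of the 2 sets did not overlap in any of the 9 divisions. XO-only peaks were narrow, so the sets were also compared among peaks under 1000 bp, where the ratio was 0.861 (0.849 to 0.878) in 3593 XO-only peaks and 0.969 (0.954 to 0.990) in 2475 shared peaks. At that width the intervals overlapped between genes only, 0.833 (0.808 to 0.875) against 0.917 (0.863 to 0.966). Shared peaks of that width were level with the tiles, at 0.969 each. Over all widths, shared peaks were not above the tiles between genes (0.923 and 0.929) or on chromosome I (1.00 and 1.01). Base composition can also affect how well fragments are amplified and sequenced, and its part in the calling of peaks was not tested.

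**Figure D1:**
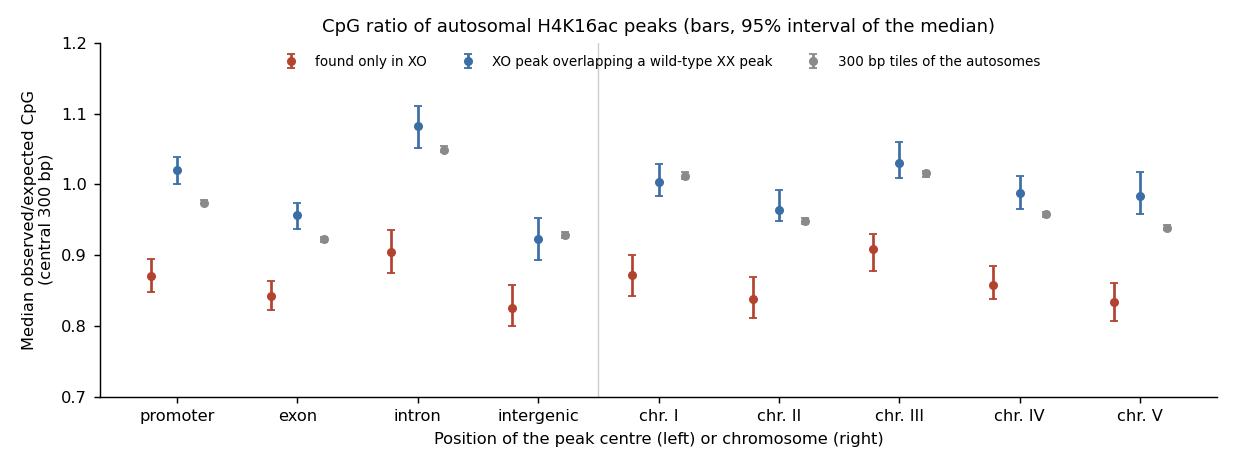
Median ratio of observed to expected CG dinucleotides in the central 300 bp of XO-only peaks, of shared XO peaks and of 300 bp tiles of the autosomes, by the position of the centre and by chromosome, with 95% intervals. XO-only peaks lie lowest in each of the 9 divisions, between 0.825 and 0.909.

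Repeats and some short words differed in frequency as well. Sequence that RefSeq masks as repeated or of low complexity made up more than 50% of the central 300 bp in 17.6% of XO-only peaks (16.5 to 18.8), in 22.9% of shared peaks (21.9 to 23.8), in 28.7% of XX-only peaks and in 26.98% of the tiles. TGATAA, the core of sites for GATA factors, which specify intestine and epidermis, occurred on either strand in 27.8% of XO-only peaks (26.5 to 29.1), 24.3% of shared peaks (23.4 to 25.3), 27.5% of XX-only peaks (25.2 to 29.9) and 25.1% of tiles. CGCG, which overlaps the CG count above, occurred in 20.0% of XO-only peaks (18.9 to 21.2), 25.7% of shared peaks (24.8 to 26.8), 18.2% of XX-only peaks (16.2 to 20.3) and 23.0% of tiles. The intervals of XO-only and XX-only peaks overlapped for both words. Among peaks under 1000 bp the intervals of XO-only and shared peaks overlapped, with TGATAA in 27.7% (26.3 to 29.2) and 26.1% (24.4 to 27.9) and CGCG in 19.6% (18.4 to 20.95) and 21.8% (20.2 to 23.5). GAGAGA was in 15.2% of XO-only peaks, 17.5% of shared peaks and 14.6% of tiles, and a run of 8 T in 26.6%, 28.8% and 31.2% of the same sets. The words TATAAA (28.5% and 28.7%) and CACGTG (5.84% and 5.76%) were equally frequent in XO-only and shared peaks within their intervals.

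XO-only peaks were small. Their median width was 525.5 bp (511 to 538), against 1763 bp (1688 to 1834) for shared peaks and 454 bp (432 to 470) for XX peaks with no XO partner. Of XO-only peaks 47.2% were under 500 bp wide, against 15.0% of shared peaks. Together they covered 2895994 bp, which is 3.51% of the autosomes and 9.47% of the autosomal sequence in XO peaks. The share of XO peaks that were XO-only went down with width, with 68.3% of peaks under 300 bp, 52.8% of those of 500 to 1000 bp and 5.84% of those of 2000 to 5000 bp. Of the 1678 peaks of 5000 bp or more, 2 were XO-only (0.119%). A narrow region has less room to touch another list, so width is tied to the rule that chose the peaks and is given as a description.

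Most XO-only peaks lay near an XX peak. The median gap to the nearest XX peak was 2167.5 bp (2060 to 2273), 26.9% lay within 1000 bp and 74.97% within 5000 bp. XX peaks covered 34.9% of the autosomes, and how near other autosomal sequence lies to them was not measured. At the edge of the rule, the 5 closest XO-only peaks had gaps of 0, 1, 2, 2 and 3 bp to an XX peak, and the 5 shared peaks nearest to exclusion overlapped one by 1, 1, 2, 2 and 3 bp. In all, 1373 shared peaks had less than 50% of their length in XX peaks. At the other end, 121 XO-only peaks were 20 kb or more from any XX peak, of which chromosome II held the most (34) and chromosome III the fewest (12). The most isolated, 223 bp at chrIV:16758612-16758834, was 86192 bp from the nearest XX peak and had no protein-coding gene within 1000 bp. The next, 499 bp at chrV:16231889-16232387, lay 71162 bp away and within 1000 bp of gst-22, a glutathione S-transferase gene. XO-only peaks also stood next to each other, since for 54.5% of them (53.0 to 56.0) the nearest other XO peak was XO-only too. Of all autosomal XO peaks 37.1% were XO-only, and the rule itself places XO-only peaks between XX peaks. The XO-only peaks are followed along each chromosome next. They formed 1933 uninterrupted runs, of which 893 were single peaks and 198 had at least 5, with 17 in the longest.

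The peaks were spread over all autosomes, with 889 on chromosome I, 910 on chromosome II, 923 on chromosome III, 908 on chromosome IV and 752 on chromosome V. Per megabase this was 59.0, 59.6, 67.0, 51.9 and 35.9, so that chromosome V, the longest, was the sparsest. Shared peaks were sparsest on V too, at 62.4 per megabase. The share of a chromosome's XO peaks that were XO-only was lowest on chromosome I, at 32.9% (31.2 to 34.7), and highest on chromosome II, at 39.9% (37.9 to 42.0). Chromosomes V, III and IV stood between, at 36.6% (34.5 to 38.7), 37.4% (35.5 to 39.3) and 39.4% (37.5 to 41.4), and the interval of I touched only that of V.

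Along the chromosomes, the outer 30% of the length at each end held 53.2% of XO-only peaks (51.7 to 54.7) and 54.2% of shared peaks (53.0 to 55.3), which did not differ beyond counting error. The outermost 20% at each end held fewer XO-only peaks, with 32.9% of them (31.5 to 34.3) and 36.3% of shared peaks (35.2 to 37.4). Single chromosomes differed as well. On V, the middle 40% of the length held 68.0% of XO-only peaks (64.5 to 71.2) and 56.0% of shared peaks (53.3 to 58.7). On IV, the first 30% held 43.2% of XO-only peaks (39.99 to 46.4) and 36.0% of shared peaks (33.5 to 38.5), while the last 30% held 11.2% (9.34 to 13.5) and 16.7% (14.8 to 18.8). On II the last 30% held 39.8% of XO-only peaks (36.6 to 43.0) and 33.2% of shared peaks (30.7 to 35.7). On I the first 30% held 30.0% of XO-only peaks (27.1 to 33.1) and 37.5% of shared peaks (35.3 to 39.8). Neighbouring peaks are not independent, which these intervals do not cover.

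**Figure D2:**
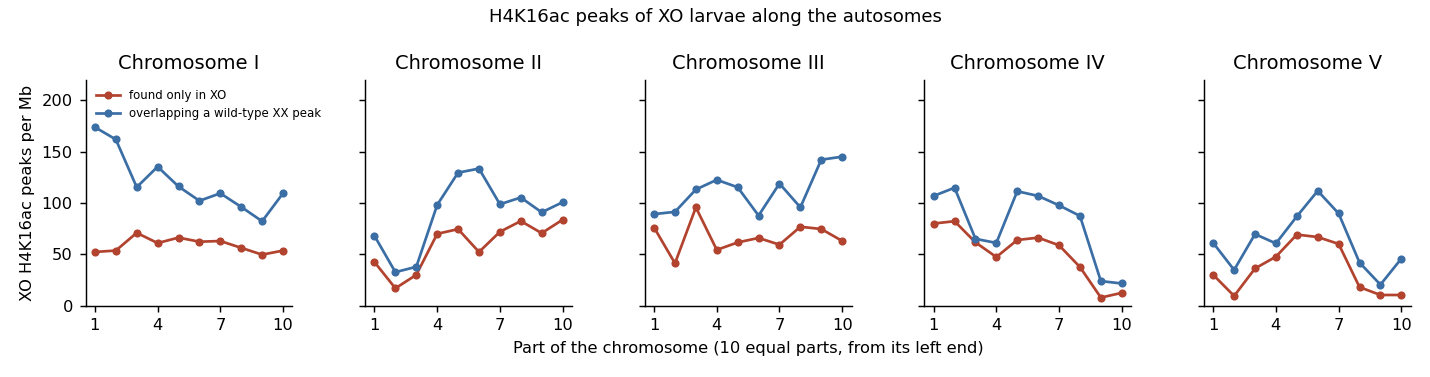
Peaks per megabase in 10 equal parts of each of the 5 autosomes, for XO-only peaks and for shared XO peaks. XO-only peaks are the fewer throughout and thin out at the right ends of IV and V, where the last 30% of the length holds 11.2% and 10.9% of the chromosome's XO-only peaks.

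The densest windows of 100 kb were chrII:7200001-7300000 with 18 XO-only peaks, chrIII:500001-600000 and chrIV:4500001-4600000 with 17 each, and chrI:8900001-9000000 and chrIII:3300001-3400000 with 16 each. The median over 827 windows was 5, and 108 windows had none. In the window on I, the promoters of tsp-15, a tetraspanin of the epidermis, and fasn-1, the fatty acid synthase, held XO-only peaks and no other. The 5 windows also had between 9 and 15 shared peaks each, so they were not devoid of the mark in XX.

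By the annotation at their centres, 30.4% of XO-only peaks (29.1 to 31.8) lay in promoters, taken as the 1000 bp before a transcript start, 26.5% in exons, 26.3% in introns and 16.8% between genes. Shared peaks had 34.5% in promoters (33.4 to 35.6), 25.8% in exons, 25.5% in introns and 14.2% between genes. The tiles of the autosomes had 34.7% in promoters, so shared peaks were close to the genome and XO-only peaks below it, as were XX-only peaks with 31.1% (28.7 to 33.6). These promoters are of all transcripts, those of noncoding genes such as piRNA genes included. With protein-coding genes alone, 19.4% of XO-only peaks lay in promoters, and shared peaks and tiles were not counted in that way. A centre within 500 bp of the start of a protein-coding gene was found in 20.5% of XO-only peaks (19.4 to 21.8), 28.01% of shared peaks (26.996 to 29.04), 22.1% of XX-only peaks (19.97 to 24.3) and 24.1% of tiles. Among peaks under 1000 bp these differences were smaller, with 30.1% of XO-only peaks (28.6 to 31.6) and 29.3% of shared peaks (27.5 to 31.1) in promoters, and 20.6% (19.3 to 21.9) and 22.9% (21.3 to 24.6) within 500 bp of a start.

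The widest XO-only peak spanned 6349 bp at chrI:11748577-11754925, and the third widest, of 4960 bp, stood beside it at chrI:11755615-11760574. Both lay in vab-10, which encodes a spectraplakin that ties the epidermis to muscle and cuticle. vab-10 held 6 XO-only peaks over 15435 bp, 26.8% of its length, along with shared peaks elsewhere in the gene. Its RNA was 125 RPKM in XO with vector and 106 RPKM under the label mys-1(RNAi), against 71.6 RPKM in dpy-21(e428) and 77.4 RPKM in wild type. The second widest, of 5625 bp at chrI:3287628-3293252, covered 5544 of the 5836 bp of sulp-6, a gene of the sulfate permease family, and also met W01B11.6. sulp-6 was at 0.0831 RPKM in XO and 0.0513 RPKM in wild type, whereas W01B11.6 was at 99.2 RPKM and 70.1 RPKM, so the wide peak ran over a gene with hardly any RNA. Others among the 10 widest lay at sax-7, which encodes an L1-type adhesion molecule, unc-16, the JIP3 adaptor for axonal transport, and kpc-1, a furin-like protease.

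XO-only peaks met 2433 protein-coding genes, of which 215 lay at least 50% inside them. After vab-10, the most base pairs were covered in unc-103, a potassium channel of muscle and neurons, with 8 peaks over 12053 bp or 37.8% of the gene. unc-13, needed for the release of synaptic vesicles, held 9 peaks over 6892 bp. egl-8, a phospholipase C beta of neurons and intestine, held 6 peaks over 6462 bp, and cpna-2, of the copine family, held 7 over 5925 bp. Neither egl-8 nor cpna-2 met any shared or XX peak, so all the H4K16ac called over them was XO-only. RNA of egl-8 was at 46.7 RPKM in XO with vector and 46.3 RPKM in wild type, and cpna-2 had 49.7 RPKM and 39.3 RPKM. These genes were picked by the length covered, after the values were seen.

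To ask which genes have only this kind of peak in front of them, autosomal genes were sorted by the peaks in the 1000 bp before their start. Of 16942 protein-coding genes, 1011 (5.97%) had one or more XO-only peaks there and no other peak, 7827 (46.2%) had both XO and XX peaks, 545 (3.22%) had an XX peak only and 7145 (42.2%) had none. The first are called genes with an XO-only promoter peak. In the class with an XX peak only, that peak could still overlap an XO peak outside the promoter. This class is therefore not limited to the XX-only peaks above.

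Genes with an XO-only promoter peak stood between the others in RNA. Their median in XO with vector was 3.56 RPKM (2.65 to 4.58), against 17.6 RPKM (16.9 to 18.2) for genes with XO and XX peaks and 0.421 RPKM (0.374 to 0.467) for genes with none. Genes with an XX peak only had 5.59 RPKM (4.06 to 6.79). In wild type, where the promoter has no peak, the genes with an XO-only promoter peak had a median of 1.96 RPKM (1.32 to 2.896) and the genes with none 0.198 RPKM. Above 1 RPKM in XO with vector were 61.3% of them (58.3 to 64.3), 88.3% of genes with XO and XX peaks and 41.6% of genes with none. Over all 2118 autosomal genes with an XO-only promoter peak, which include short noncoding genes that these libraries hardly measure, the share was 36.8% (34.8 to 38.9).

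**Figure D3:**
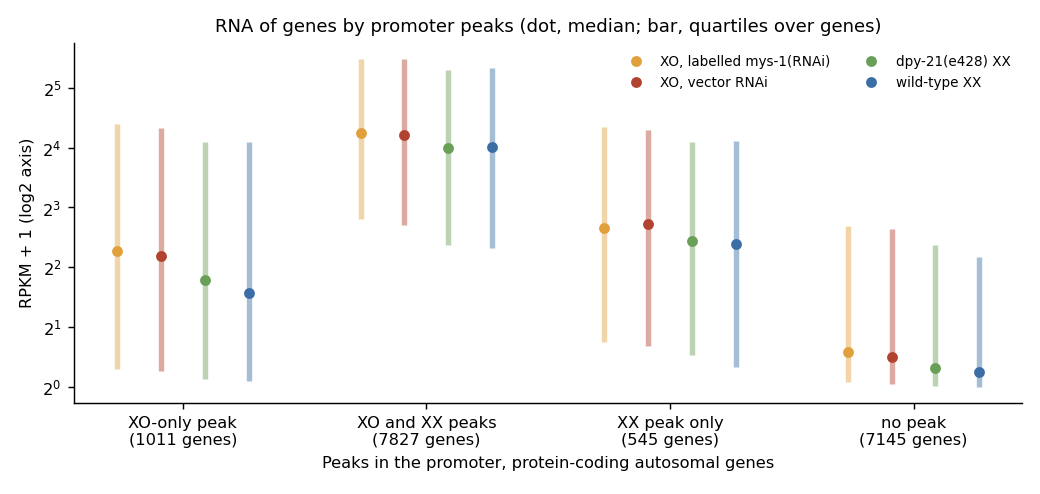
RNA of autosomal protein-coding genes by the peaks in their promoter, in the 4 RNA groups, as median and quartiles over genes of RPKM + 1 on a log2 axis. Genes with an XO-only peak had medians of 3.56 RPKM in XO with vector and 1.96 RPKM in wild type, between genes with XO and XX peaks and genes with no peak.

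RNA in XO relative to wild type was compared as log2 of (RPKM + 1) in genes with a mean above 1 RPKM. The median was 0.23 (0.15 to 0.32) in 752 genes with an XO-only promoter peak and 0.18 over all 12635 autosomal genes, so most genes were somewhat higher in XO whatever their peaks. It was 0.22 (0.16 to 0.30) in 442 genes with an XX peak and no XO peak in the promoter. In genes with XO and XX peaks it was 0.15 (0.14 to 0.16) and in genes with none 0.31 (0.28 to 0.34). Genes with an XO-only peak were thus not higher than genes with no peak, and close to genes whose promoter had an XX peak and no XO peak. Their median depended on the filter on low values, since it was 0.12 above a mean of 5 RPKM and 0 with no filter. They differed more often than all autosomal genes in both directions: 144 (19.1%) were at least 2-fold higher in XO, where 13.9% of all autosomal genes were, and 79 (10.5%) were at least 2-fold lower, where 5.53% were. Above a mean of 5 RPKM, 92 were higher, and the share of all autosomal genes at that filter was not computed. Of genes with an XX peak and no XO peak in the promoter, 16.1% (12.9 to 19.8) were higher and 6.79% (4.80 to 9.52) lower. Of genes with no peak, 23.1% were higher and 8.47% lower, and of genes with XO and XX peaks 9.36% and 3.42%. Such shares vary with the RNA level, and at 5 to 20 RPKM the shares higher were 17.7% of 203 protein-coding genes with an XO-only peak, 7.71% with XO and XX peaks and 20.7% with no peak.

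Among the genes with an XO-only promoter peak and most RNA, the lower ones were more numerous. Of 71 such protein-coding genes with a mean above 100 RPKM, 10 (14.1%) were at least 2-fold higher in XO and 19 (26.8%) at least 2-fold lower. At that level, 4.45% of 876 genes with XO and XX peaks were higher and 2.74% lower. Of 161 genes with no peak, 16.1% were higher and 18.01% lower, so there too the lower ones were more numerous. No intervals were computed for these shares. At lower levels the shares lower were nearer to each other or in the opposite order, with 1.90% of genes with an XO-only peak against 4.14% with no peak at 1 to 5 RPKM, 4.93% against 6.61% at 5 to 20 RPKM and 11.6% against 10.6% at 20 to 100 RPKM. Of the collagens above 100 RPKM, col-54, col-65, col-73, col-97, col-109 and col-130 were at least 2-fold lower, and col-93, col-98 and col-160 at least 2-fold higher.

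The comparison of dpy-21(e428) with wild type, 2 groups of XX animals, uses the same wild-type mean as the comparison above. There the median log2 ratio was -0.035 (-0.081 to -0.0027) in 713 genes with an XO-only promoter peak, against -0.013 in all 12167 autosomal genes. At least 2-fold higher in dpy-21(e428) were 64 (8.98%), where 6.71% of all were, and at least 2-fold lower 69 (9.68%), where 4.95% were. The libraries labelled mys-1(RNAi), compared with XO with vector, had a median of 0.049 (0.028 to 0.071) in 797 genes with an XO-only promoter peak and 0.028 over all 13112. At least 2-fold higher were 33 (4.14%), where 2.48% of all were, and at least 2-fold lower 23 (2.89%), where 2.07% were. Most of these do not encode proteins. Of the 624 protein-coding genes with an XO-only promoter peak, 4 were 2-fold higher (0.641%, 0.2496 to 1.64) and none lower, where 0.328% of all 11267 protein-coding genes were higher and 0.169% lower. The 4 included mys-1, the gene that the RNAi targets, at 51.7 RPKM against 15.7 RPKM. The others were col-145 at 85.4 RPKM against 30.9 RPKM, lips-6, a lipase-related gene, at 120 RPKM against 51.4 RPKM, and T13A10.64 at 7.39 RPKM against 2.68 RPKM.

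Cuticle collagens were the gene list with the largest share of XO-only promoter peaks. The worm's cuticle is built at each larval moult from collagens that epidermal cells make in pulses. Of 131 autosomal genes named col, 33 (25.2%, 18.5 to 33.3) had an XO-only promoter peak, where 5.97% of all protein-coding genes did, while 46 had XO and XX peaks and 48 had none. The bodies of 2 of the 33, col-128 and col-130, met an XX peak, and those of the others met none.

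RNA of these collagens differed in both directions. Above a mean of 1 RPKM were 19 of the 33, with 4 at least 2-fold higher and 9 at least 2-fold lower in XO with vector. col-73 was at 739 RPKM in XO with vector, 1070 RPKM under the label mys-1(RNAi) and 843 RPKM in dpy-21(e428), against 1778 RPKM in wild type. col-145 was at 30.9, 85.4 and 47.8 RPKM in the same 3 groups, against 151 RPKM in wild type. col-98 went the other way, with 296, 290 and 250 RPKM, against 53.2 RPKM in wild type. col-93 had 331 RPKM in XO with vector and 114 RPKM in wild type. The median log2 ratio of the 19 was -0.52, and it was -0.75 in 30 collagens with XO and XX peaks and -0.34 in 23 with none. Over all 75 collagens above 1 RPKM, 16 were higher and 30 lower, so the collagens differed as a family and not only where the promoter had an XO-only peak. In dpy-21(e428), compared with the same wild-type mean, 8 of 75 were higher and 20 lower. Whether the larvae of the groups were at the same point of the moulting cycle was not tested.

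Other lists gave smaller numbers. Of 13 autosomal genes of body wall muscle, 3 had an XO-only promoter peak (23.1%, 8.18 to 50.3), among them unc-15, which encodes paramyosin, and myo-3, a myosin heavy chain. unc-15 was at 1059 RPKM in XO with vector, against 594 RPKM in wild type, and myo-3 at 154 RPKM against 80.8 RPKM. Of 47 homeobox genes named ceh, 5 had one (10.6%, 4.63 to 22.6). ceh-32, a Six-type gene of the head, was at 16.5 RPKM against 5.53 RPKM in wild type, but shares exon sequence with W05E10.16. ceh-43, the Distal-less relative, was at 15.9 RPKM against 9.61 RPKM. Of 261 C-type lectin genes 21 did (8.05%, 5.32 to 12.0), with clec-65 at 48.1 RPKM against 31.1 RPKM. unc-86, a POU gene that specifies neurons, was the 1 gene of 19 in the list of synapse and neuron genes.

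Ribosomal protein and proteasome genes had none. All 74 ribosomal protein genes and all 32 proteasome genes had XO and XX peaks in the promoter, so none had an XO-only one (0 of 74 allows a share of up to 4.93% and 0 of 32 up to 10.7%, by the Wilson bound). Of 23 genes of P granules and the germ line and 17 heat shock genes none had XO-only peaks alone either. But these lists are short and allow up to 14.3% and 18.4%, above the 5.97% of all protein-coding genes. Among the genes of P granules and the germ line, 1 had an XO-only peak beside other peaks. At the opposite pole, 1433 of 1575 chemoreceptor genes had no peak at all and 47 (2.98%, 2.25 to 3.95) had an XO-only one, with 0 of the 47 above 1 RPKM. F-box genes, a list that includes the pseudogene fbxa-33, were also below the share of all protein-coding genes, with 9 of 368 (2.45%, 1.29 to 4.58). Nuclear hormone receptors had 13 of 257 (5.06%), genes of detoxification 8 of 175 (4.57%), neuropeptides 5 of 89 (5.62%) and histones 4 of 68 (5.88%), where histone genes are near-identical copies whose reads may be split among them.

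**Figure D4:**
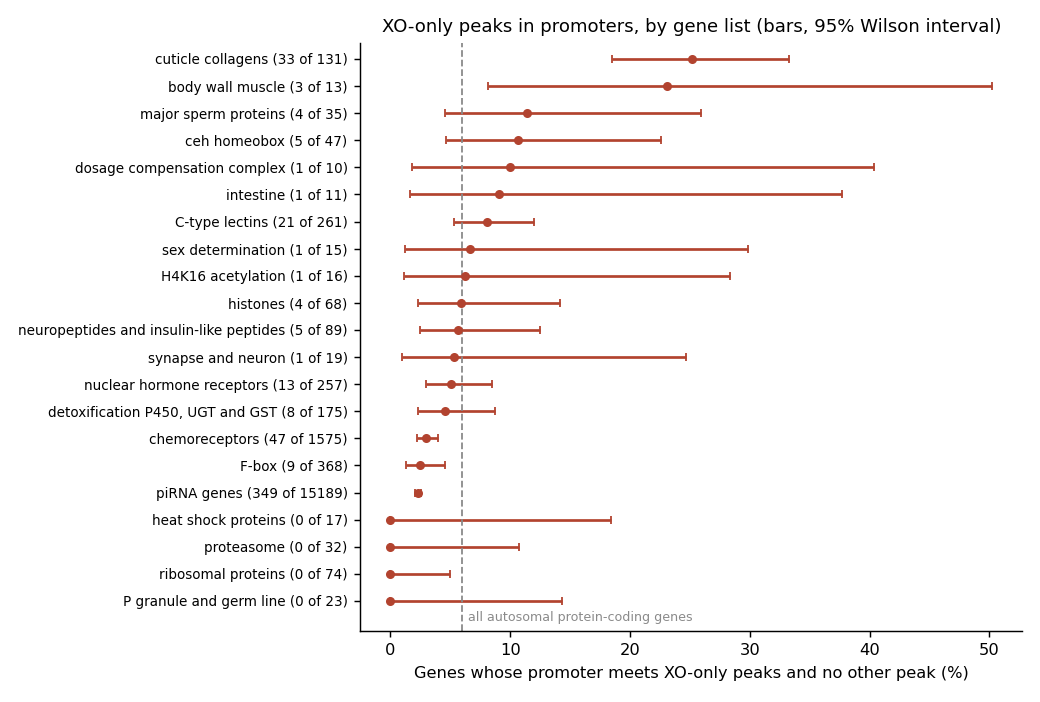
Share of the autosomal genes of each list whose promoter holds XO-only peaks and no other peak, with 95% Wilson intervals and the counts. The dashed line is the share among all autosomal protein-coding genes, 5.97%, which the interval of the cuticle collagens (18.5 to 33.3) lies above. The intervals of the chemoreceptors (2.25 to 3.95), F-box genes (1.29 to 4.58), ribosomal proteins (0 to 4.93) and piRNA genes (2.07 to 2.55) lie below it. The piRNA genes do not encode proteins, and the F-box list includes the pseudogene fbxa-33.

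Genes that make or read the mark and genes of sex determination were looked up one by one. The promoter of mys-1 itself was XO-only: a peak of 255 bp at chrV:7084542-7084796, centred 7 bp from the gene start and 4188 bp from the nearest XX peak, with no XX peak in the gene. mys-1 RNA was at 15.7 RPKM in XO with vector, 14.5 RPKM in dpy-21(e428) and 14.3 RPKM in wild type, and its exons overlap those of npa-1, which these non-stranded libraries cannot separate. Of the other 15 autosomal genes in the list of H4K16 acetylation, 14 had XO and XX peaks in the promoter. The next list held 10 autosomal genes of or linked to the dosage compensation complex, with set-1 and set-4 included. Among them dpy-28, a condensin subunit, had an XO-only peak of 261 bp centred 918 bp before its start. This peak lay 1577 bp from the nearest XX peak, and the gene itself met an XX peak. dpy-28 RNA was at 16.5 RPKM in XO with vector, against 7.80 RPKM in wild type. sdc-3, which helps to recruit the complex to X, had an XO-only peak of 288 bp beside other peaks, and 7 of the 10 had XO and XX peaks. Of 15 genes of sex determination, tra-3, a calpain protease that promotes female development, had an XO-only peak of 720 bp centred 57 bp from its start, with 17.4 RPKM in XO and 12.9 RPKM in wild type.

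Noncoding genes were included as well. Of all 40049 autosomal genes 2118 had an XO-only promoter peak (5.29%), and of protein-coding genes 5.97%. Of 4840 genes annotated as ncRNA 561 had an XO-only promoter peak (11.6%, 10.7 to 12.5), of 336 tRNA genes 32 (9.52%, 6.83 to 13.1) and of 160 miRNA genes 15 (9.38%, 5.76 to 14.9). Of 313 snoRNA genes, many of which lie inside other genes, 17 did (5.43%) and 215 had XO and XX peaks. Of 15189 piRNA genes, which make the small RNAs that protect the germ line and lie mostly in clusters on chromosome IV, 349 did (2.30%). Chromosome IV held 308 of these 349 and 14702 of the 15189 piRNA genes. No RNA of single noncoding genes is given, since libraries of this kind measure short transcripts poorly, but those above 1 RPKM count in the comparisons over all genes above, where 605 of the 752 genes with an XO-only promoter peak were protein-coding.

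The RNA of single genes is given for those with an XO-only promoter peak and no XX peak in the gene. There were 709 such protein-coding genes, 388 above a mean of 1 RPKM, with 81 at least 2-fold higher and 36 at least 2-fold lower in XO with vector and a median log2 ratio of 0.28 (0.18 to 0.37). Of all 10966 protein-coding genes above that level 12.0% were higher and 3.66% lower, with a median of 0.18.

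The highest ratio was that of C01G10.5, with 61.7 RPKM in XO with vector, 35.6 RPKM under the label mys-1(RNAi) and 21.3 RPKM in dpy-21(e428), against 1.54 RPKM in wild type. It shared its peak with C01G10.17, which had 10.4, 4.86 and 3.98 RPKM in the same groups, against 0.511 RPKM in wild type. F59D6.1 had 17.1, 20.0 and 14.4 RPKM, against 0.280 RPKM in wild type, and its peak lay 42533 bp from any XX peak. C18D11.6 had 10.5, 11.6 and 8.88 RPKM, against 0.322 RPKM. In these 4 genes dpy-21(e428), an XX strain, was above wild type as well, but the wild-type mean that chose them stands in both ratios. In ZK596.1 it was close to wild type, with 87.6 RPKM in XO with vector and 77.9 RPKM in the libraries labelled mys-1(RNAi), against 17.4 RPKM in dpy-21(e428) and 13.8 RPKM in wild type. cky-1, which encodes a bHLH-PAS transcription factor, had 10.8, 9.10 and 1.95 RPKM, against 1.10 RPKM in wild type. Over the 10 highest, log2 ratios were between 2.46 for col-98 and 4.63 for C01G10.5. pqn-75, which is among them, shares exon sequence with other genes and its value is uncertain.

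The lowest ratio was that of D2092.8, with 37.0 RPKM in XO with vector, 70.8 RPKM under the label mys-1(RNAi) and 175 RPKM in dpy-21(e428), against 478 RPKM in wild type. cpt-4, of the carnitine palmitoyltransferase family that carries fatty acids into mitochondria, had 10.9, 14.3 and 70.4 RPKM, against 120 RPKM in wild type. cut-4 had 5.30, 9.53 and 15.0 RPKM, against 51.4 RPKM. R12E2.14 and R12E2.15 shared 1 peak of 744 bp, and R12E2.15 had 256, 419 and 674 RPKM, against 1704 RPKM in wild type. The 10 lowest ratios ran between -3.66 for D2092.8 and -1.80 for ZK180.6, and col-65 and col-145 were among them. In all 10 the libraries labelled mys-1(RNAi) were above XO with vector and below wild type, but the vector mean that chose them stands in both ratios. F13B6.3 was the 1 gene of the 10 that was not lower in dpy-21(e428), with 192 RPKM, against 189 RPKM in wild type.

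Genes with much RNA could have an XO-only peak and no XX peak. pat-10, the troponin C of body wall muscle, was the highest, with 2925 RPKM in XO with vector, 2870 RPKM under the label mys-1(RNAi) and 1827 RPKM in dpy-21(e428), against 2304 RPKM in wild type. Next came Y51A2D.14, with 1151, 1041 and 530 RPKM, against 507 RPKM. sqt-1, a cuticle collagen that shapes the body, had 980, 1196 and 838 RPKM, against 1510 RPKM. asp-10, of the aspartyl proteases, had 935, 1329 and 101.3 RPKM, against 182 RPKM, but shares exon sequence with C15C8.7. These genes had much RNA in wild-type larvae with no H4K16ac peak called at the gene or its promoter. Of the 10 highest, 4 were collagens, sqt-1 included, counting col-73, col-10 and col-160, the last of which overlaps col-159.

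**Figure D5:**
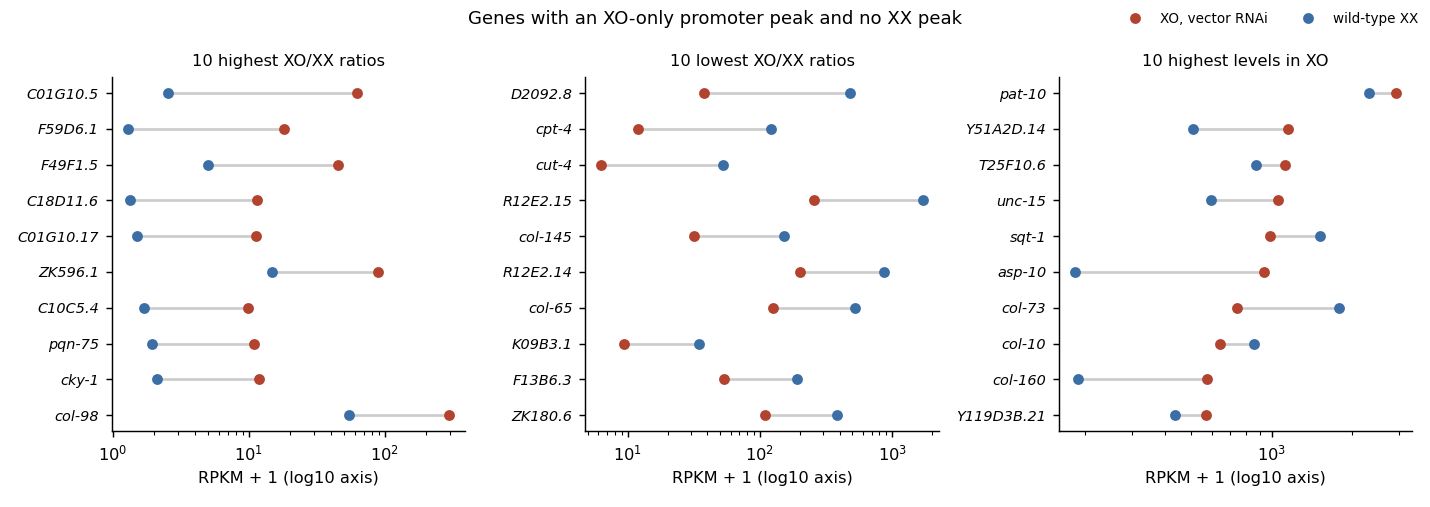
RNA of 30 genes with an XO-only promoter peak and no XX peak, in XO larvae with vector RNAi and in wild-type XX larvae, as RPKM + 1 on a log10 axis, each point the authors' mean of its group. The panels hold the 10 highest ratios of XO to XX, up to C01G10.5 with 61.7 RPKM against 1.54 RPKM, the 10 lowest, down to D2092.8 with 37.0 RPKM against 478 RPKM, and the 10 highest levels in XO.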

How the data were processed

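H4K16ac ChIP-seq and RNA-seq of C. elegans L3 larvae were used. Per the labels and the methods, the authors trimmed ChIP reads with Trim Galore 0.3.7, aligned them to WS235 with Bowtie 1.1.1 and called broad peaks with MACS2 2.1.0 on the pooled replicates. Such calls depend on depth and on the match of ChIP to input, so a peak absent from a list may lie just under its threshold. The deposited lists hold positions, and the unit of these other columns is base pairs. RPKM values were made by the authors with TopHat2 2.0.13 and Cufflinks 2.2.1 and deposited as group means. A deposited table of the authors' fold changes and adjusted p-values was not used. The depth of the libraries is not in the files used here.

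Peaks were intersected at 1 bp or more and placed on the WBcel235 annotation of Ensembl release 115, the same assembly as WS235. Of 46170 features in the RPKM table, 45835 matched a nuclear gene and 335 did not. Log2 ratios used RPKM + 1 in genes with a mean above 1 RPKM. "2-fold" counts are calls by size with no test. Scripts ran in Python 3.11.15 with numpy 2.4.6, pandas 2.3.3 and scipy 1.17.1, and their overlap and interval functions were tested on simulated data.

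The members, the 21 gene lists and the settings were chosen with earlier results of these data known. Genes named are the 10 highest and 10 lowest ratios and the 10 highest levels among genes with an XO-only promoter peak and no XX peak, the 10 widest peaks, the 5 densest windows, the 2 genes with most RNA in each list, and the genes looked up. Genes named for CG content, length covered or distance were chosen after their values were seen. Alternatives changed the peak width, the overlap rule, the merging of peaks, the promoter length, the gene set, the RPKM filter and the pseudocount.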

Additional observations from a re-analysis of the deposited data

How the results depend on the processing

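Of 79 alternative values of 13 results, 53 stayed within the 95% interval of the value given (counts within 1.5 times). Only the 3 median log2 ratios can be negative, and none of them changed sign. The share of autosomal XO peaks that were XO-only, 37.1%, was 32.1% with peaks of 500 bp or more only, 32.9% when an XX peak within 500 bp also removed a peak, 48.7% when only XX cover of at least 50% removed one, and 9.47% in base pairs. No gap within either list was 500 bp or less, so merging up to that gap could change nothing, and its values count among the 53. Merging up to 1000 bp, added after seeing the data, gave 39.5%, with 18.8% of XO-only peaks on V and a median width of 553 bp. The share on V was 15.6% in base pairs, and the median width 612 bp under the 50% rule. The outer 20% of the length at each end held 32.9% of XO-only peaks and 36.3% of shared peaks. Promoters of 500 bp held 17.4% of centres, of 2000 bp 48.9% and of protein-coding genes alone 19.4%. Median GC was 35.7% with peaks of 500 bp or more or with the central 300 bp, and 35.4% with no XX peak within 500 bp. The CG ratio was 0.880 in peaks of 500 bp or more. Genes above the threshold were 61.3% among protein-coding genes, 50.9% at 0.1 RPKM and 24.9% at 5 RPKM. With no RPKM filter, all 3 median log2 ratios were 0, since many genes are listed at 0. Above a mean of 5 RPKM the ratio of XO to wild type was 0.12 and 92 genes were 2-fold higher. The share of all autosomal genes at that filter was not computed. Among the 605 protein-coding genes with an XO-only promoter peak 52 (8.60%) were 2-fold lower, where 3.66% of all protein-coding genes were. Leaving out replicates could not be run, because the values used are pooled. No paired analysis was possible because the columns carry no replicates. Median width was not recomputed for peaks of 500 bp or more, since the setting itself fixes it.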

Other observations

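The sequence before Y51A2D.14 holds a copy of the unit that makes up worm telomeres. After this was seen, TTAGGC was counted on either strand in the central 300 bp of all peaks: it occurred in 9.49% of the 4382 XO-only peaks (8.66 to 10.4), 7.39% of the 7427 shared peaks (6.82 to 8.01), 6.83% of the 1377 XX-only peaks (5.61 to 8.28) and 7.39% of the tiles of the autosomes. A pair of units in direct succession was in 56 XO-only peaks (1.28%, 0.985 to 1.66) and in 47 shared peaks (0.633%, 0.476 to 0.840). Among peaks under 1000 bp the single unit was in 9.66% of XO-only (8.73 to 10.7) and 7.52% of shared peaks (6.54 to 8.62), and the pair in 1.45% (1.11 to 1.89) and 0.970% (0.653 to 1.44), whose intervals overlap. Reads from repeats can align at several places, and their part in these counts was not tested.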
